A study of Homo sapiens with 6 samples.

Results

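CD24, PLCH2, PEAR1, B3GNT7, CRACR2B, ZG16B, RHBDL1 and C10orf10 are 8 genes whose RNA level was higher in treated PK-1 cells and lower in treated Panc-1 cells with both of the RARγ inhibitors used. They were chosen on these same measurements: each lay over 2-fold above the control with both inhibitors in PK-1 and over 2-fold below it with both inhibitors in Panc-1. The opposite direction of the genes is therefore a description of how they were chosen and was not tested. The 8 genes are among 53826 entries per library, of which 15654 lay above the lower limit of the values in at least 1 library. Each gene has 1 entry.

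RNA sequencing of 6 cultures gave 1 library for each condition. Both lines, PK-1 and Panc-1, are established from human pancreatic ductal adenocarcinoma. A culture of each line served as the control, and further cultures received RARγi-1 (LY2955303) or RARγi-2 (MM11253) for 24 h, which are antagonists of retinoic acid receptor γ. Levels are given as TPM (the share of a transcript in a library, scaled for transcript length and to a common total, so that genes can be compared), and the authors had raised every value under 1 TPM to 1 TPM, which is called the floor here. The labels call the control libraries control and no more, and neither their vehicle nor the doses used for sequencing are stated. One label gives RARγi-1 as the treatment of both RARγi-2 libraries, which were assigned by their titles. PK-1 and Panc-1 are 1 line each, so that a difference between the lines cannot be told apart from a difference between 2 cultures.

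Retinoic acid receptors are nuclear receptors that bind DNA together with a retinoid X receptor and switch genes on when retinoic acid is bound, and RARγ is the form best known from epithelia. The 8 genes do not belong to 1 pathway. They encode surface proteins (CD24 and PEAR1), proteins of calcium signalling (PLCH2 and CRACR2B), enzymes of the secretory pathway and its membranes (B3GNT7 and RHBDL1), a secreted lectin (ZG16B) and a protein linked to FOXO transcription factors and autophagy (C10orf10).

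All libraries had a like number of entries above the floor, between 13149 and 13652, and 74.6% to 75.6% of the entries of a library lay at the floor. The 10 most abundant entries held 9.02% to 12.2% of the TPM. The levels of SMAD4 and CDKN2A, which are commonly lost in this cancer, were listed at the floor in every PK-1 library, whereas Panc-1 had SMAD4 at 4.85 TPM in the control and CDKN2A at the floor. The ductal keratin KRT7 lay at 5663 TPM in the PK-1 control and at 4.19 TPM in the Panc-1 control. The epithelial cadherin CDH1 lay at 170 TPM and at the floor, and the mesenchymal filament gene VIM at 41.7 and 6291 TPM. ZEB1 and CDH2, also mesenchymal, were at the floor in the PK-1 control and at 8.65 and 6.36 TPM in the Panc-1 control. The mesenchymal marker SNAI2 went the other way, at 46.7 and 1.45 TPM. The ductal keratin KRT19 was abundant in both controls, at 3711 and 1454 TPM. Panc-1 thus held some defining markers of ductal epithelium and was low in or at the floor for others. MUC1 and SOX9 were lower in the PK-1 control, at 1.02 and 40.0 TPM, than in the Panc-1 control, at 29.3 and 63.1 TPM. The other ductal markers listed were higher in the PK-1 control. MUC1 moved in the directions of the 8 genes, to 2.48 and 2.45 TPM in PK-1 and to 19.4 and 18.2 TPM in Panc-1. Counts over 2-fold were made with 1 TPM added to each level. Of 8 ductal markers, 0 were over 2-fold up and 1 down with both inhibitors in PK-1, and 0 up and 3 down in Panc-1. In Panc-1 KRT19 was at 247 and 157 TPM after RARγi-1 and RARγi-2. Of 4 mesenchymal markers, VIM alone was past 2-fold with both inhibitors, up in PK-1. The part of these shifts in the changes of the 8 genes was not tested. PTPRC, CD3E, PECAM1, VWF, DCN and LUM, markers of leukocytes, endothelium and fibroblasts, were at the floor in all 6 libraries. The third fibroblast marker listed, COL1A1, was above the floor in each library, at 3.21, 11.5 and 13.4 TPM in PK-1 and at 52.4, 4.65 and 2.10 TPM in Panc-1 (control, RARγi-1 and RARγi-2), and so moved over 2-fold in the pattern of the 8 genes. Its part in their changes was not tested. The acinar protease gene PRSS1 was at 1.06, 11.1 and 21.2 TPM in the control, RARγi-1 and RARγi-2 libraries of PK-1 and at the floor in Panc-1. It moved with the genes in PK-1, and its part in their change was not tested; the other acinar markers, CPA1 and CELA3A, were at the floor throughout. In cultures sequenced in bulk, fewer cells that express a gene and less RNA of it per cell cannot be told apart.

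The promoters of 4 of the genes are shown because they hold the motifs that are returned to after the levels: a TATA box in C10orf10 and ZG16B, a site for FOXO factors in C10orf10, a hexamer that retinoic acid receptors bind in PLCH2 and an E-box that ZEB factors can bind in B3GNT7. Each sequence is 300 bases long, from 250 bases before a transcription start to 50 after it, on the strand of the gene, and comes from RefSeq on GRCh38.p14. Capitals mark the motifs named.
C10orf10, chr10:44978760-44979059, minus strand, FOXO site and TATA box: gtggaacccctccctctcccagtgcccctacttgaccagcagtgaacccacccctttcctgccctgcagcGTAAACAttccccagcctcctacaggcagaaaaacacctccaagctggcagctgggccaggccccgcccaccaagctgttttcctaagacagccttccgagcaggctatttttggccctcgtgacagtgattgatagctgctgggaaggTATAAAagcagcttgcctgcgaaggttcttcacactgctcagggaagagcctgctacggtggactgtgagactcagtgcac
ZG16B, chr16:2830053-2830352, plus strand, TATA box: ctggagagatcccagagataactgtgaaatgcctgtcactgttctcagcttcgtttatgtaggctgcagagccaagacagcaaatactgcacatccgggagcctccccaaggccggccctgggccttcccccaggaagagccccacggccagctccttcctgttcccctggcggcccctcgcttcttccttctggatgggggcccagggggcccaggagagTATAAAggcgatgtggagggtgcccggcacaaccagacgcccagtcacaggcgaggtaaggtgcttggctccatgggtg
PLCH2, chr1:2476039-2476338, plus strand, receptor hexamer read from the other strand: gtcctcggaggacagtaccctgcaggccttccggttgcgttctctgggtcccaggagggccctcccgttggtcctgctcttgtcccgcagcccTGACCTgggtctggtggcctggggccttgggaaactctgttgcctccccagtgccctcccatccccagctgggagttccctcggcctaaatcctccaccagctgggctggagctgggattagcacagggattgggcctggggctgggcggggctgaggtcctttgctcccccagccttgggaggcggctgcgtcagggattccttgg
B3GNT7, chr2:231395460-231395759, plus strand, E-box: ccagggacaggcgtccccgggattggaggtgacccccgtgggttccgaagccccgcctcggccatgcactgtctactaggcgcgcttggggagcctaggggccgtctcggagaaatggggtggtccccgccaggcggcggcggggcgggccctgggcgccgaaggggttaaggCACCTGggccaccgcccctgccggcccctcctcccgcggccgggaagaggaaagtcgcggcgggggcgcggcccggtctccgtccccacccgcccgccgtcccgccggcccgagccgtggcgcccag

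The surface proteins are described first. CD24 (Entrez ID 100133941; GRCh38.p14 chr6:106969831-106976855, minus strand) is a small, heavily glycosylated protein held to the membrane by a lipid anchor, known from epithelial progenitors and carcinomas and as a ligand of the inhibitory receptor Siglec-10 on immune cells. Its level in PK-1 was 14.9 TPM in the control, 39.0 TPM after RARγi-1 and 33.0 TPM after RARγi-2. In Panc-1 it was 210.7 TPM in the control, 57.3 TPM after RARγi-1 and 47.5 TPM after RARγi-2. Thus the 2 treated PK-1 libraries lay above their control and the 2 treated Panc-1 libraries below theirs, and a difference of 14.1-fold between the controls narrowed while Panc-1 stayed the higher line. The changes were 2.61-fold and 2.21-fold up in PK-1 and 3.67-fold and 4.44-fold down in Panc-1. CD24 has processed copies elsewhere in the genome, and how reads shared with them were counted is not given in the sources used here, so its level is uncertain.

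PEAR1 (Entrez ID 375033; chr1:156893718-156916429, plus strand) encodes a receptor with many EGF-like repeats that is known from platelets and endothelium, where it signals at platelet contacts. In PK-1 its level was 1.31 TPM in the control, 6.82 TPM after RARγi-1 and 14.2 TPM after RARγi-2. In Panc-1 it was 19.6, 8.87 and 3.12 TPM in the same order. The control of PK-1 lay close to the floor, and the order of the lines was exchanged with RARγi-2 but not with RARγi-1. The endothelial markers PECAM1 and VWF were at the floor in every library.

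Of the calcium signalling genes, PLCH2 (Entrez ID 9651; chr1:2415943-2505532, plus strand) encodes phospholipase C eta 2, which cleaves a membrane phosphoinositide into diacylglycerol and the calcium-releasing messenger IP3 and is known mainly from neurons. Its level in PK-1 was 9.83 TPM in the control, 33.2 TPM after RARγi-1 and 31.1 TPM after RARγi-2, which is alike with both inhibitors. In Panc-1 it was 60.1 TPM in the control, 4.86 TPM after RARγi-1 and 1.11 TPM after RARγi-2. The level with RARγi-2 was nearly at the floor, and PLCH2 showed the largest decrease of the 8 genes in Panc-1 with each inhibitor, 12.4-fold and 54.3-fold.

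CRACR2B (Entrez ID 283229; chr11:826157-831991, plus strand) encodes a calcium-binding regulator of the store-operated calcium channel, the channel by which a cell refills its calcium stores from outside. In PK-1 its level was 6.27 TPM in the control, 15.5 TPM after RARγi-1 and 33.2 TPM after RARγi-2. In Panc-1 the levels were 130 TPM in the control, 31.2 TPM after RARγi-1 and 21.0 TPM after RARγi-2. In both lines the RARγi-2 library stood farther from the control than the RARγi-1 library, and with RARγi-2 PK-1 became the higher line.

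B3GNT7 (Entrez ID 93010; chr2:231395710-231401164, plus strand) encodes a transferase of the Golgi that adds N-acetylglucosamine to growing sugar chains and takes part in making keratan sulfate. In PK-1 its level was 3.75 TPM in the control, 8.84 TPM after RARγi-1 and 22.03 TPM after RARγi-2. The Panc-1 levels were 93.7 TPM in the control, 23.3 TPM after RARγi-1 and 7.77 TPM after RARγi-2. Its controls differed by 24.99-fold, the widest difference among the 8 genes, and with RARγi-2 PK-1 lay 2.83-fold above Panc-1.

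RHBDL1 (Entrez ID 9028; chr16:675671-678268, plus strand) encodes a member of the rhomboid family of proteases, which cut other proteins within the membrane. In PK-1 its level was 1.14 TPM in the control, 10.3 TPM after RARγi-1 and 5.0 TPM after RARγi-2. In Panc-1 it was 3.39 TPM in the control and at the floor of 1 TPM with both inhibitors. It was the lowest of the 8 genes in both control lines, and its decrease in Panc-1 is only a lower limit that rests on a control value of a few TPM. It was also the only gene whose level in PK-1 was over 1.5 times as high with RARγi-1 as with RARγi-2.

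ZG16B (Entrez ID 124220; chr16:2830303-2832276, plus strand), also called PAUF, encodes a secreted lectin-like protein known from exocrine glands and from pancreatic cancer. Its level in PK-1 was 39.1 TPM in the control, 83.1 TPM after RARγi-1 and 115 TPM after RARγi-2. In Panc-1 it was 18.5 TPM in the control, 4.57 TPM after RARγi-1 and 4.07 TPM after RARγi-2. Of the 8 genes, ZG16B was the only one that was higher in PK-1 than in Panc-1 before treatment, by 2.11-fold. The treated libraries widened that difference to 18.2-fold with RARγi-1 and 28.3-fold with RARγi-2.

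C10orf10 (Entrez ID 11067; chr10:44976128-44978809, minus strand; DEPP1 in RefSeq) encodes a protein known as a target of FOXO transcription factors and as a regulator of autophagy. In PK-1 its level was 11.2 TPM in the control, 24.3 TPM after RARγi-1 and 24.9 TPM after RARγi-2. Its Panc-1 levels were 38.6 TPM in the control, 12.1 TPM after RARγi-1 and 5.48 TPM after RARγi-2. The PK-1 libraries were alike with both inhibitors, while the Panc-1 level with RARγi-1 was 2.20-fold that with RARγi-2. The gene lies within RASSF4, which is read from the other strand. Strand use in the counting is not given in the sources used here, but RASSF4 itself was at 1.44, 1.66 and 2.17 TPM in PK-1 and at 8.45, 7.82 and 7.36 TPM in Panc-1, below C10orf10 in every library but the last.

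**Figure D1:**
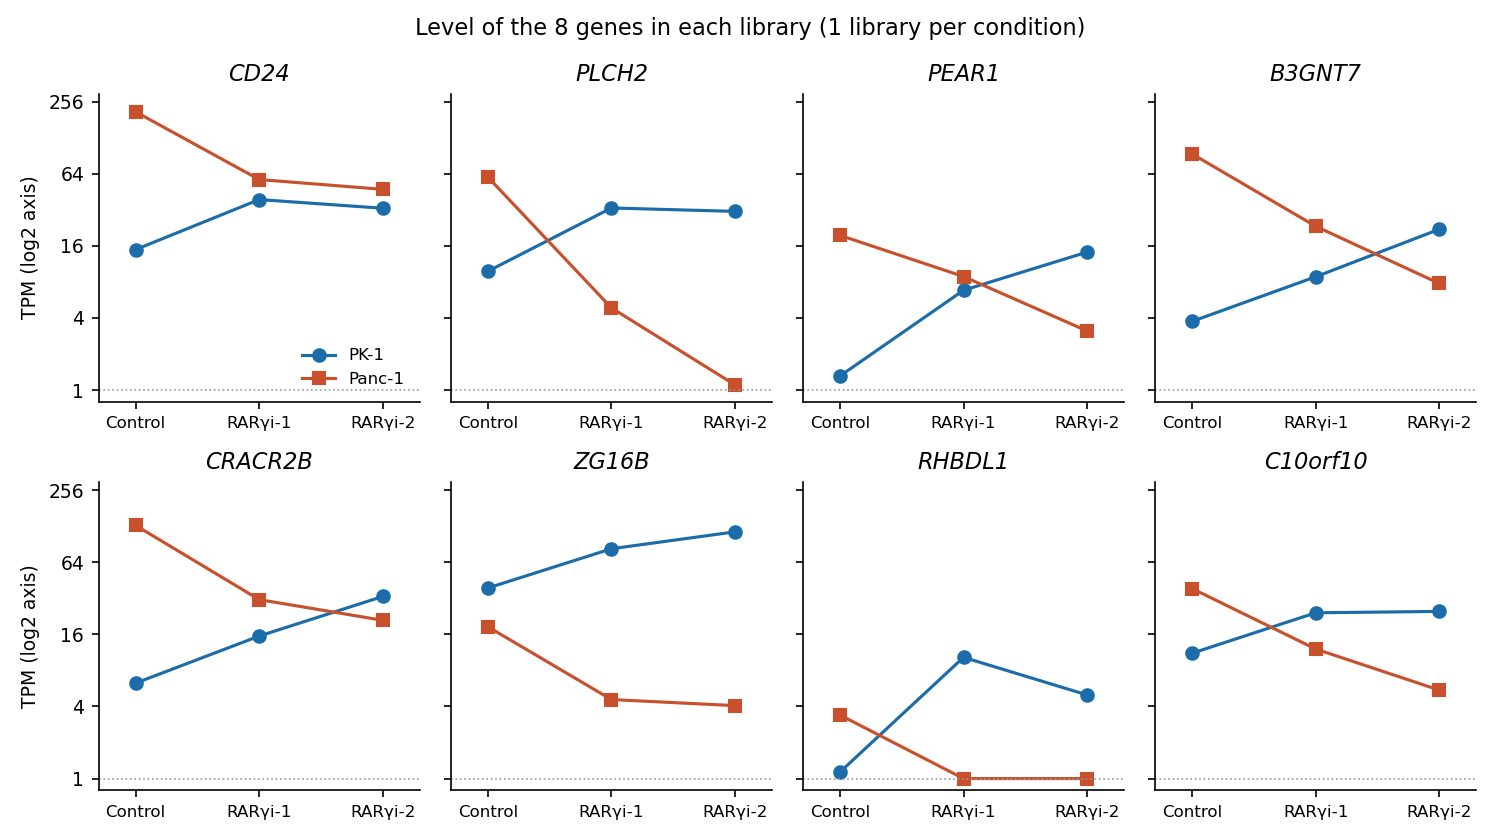
TPM of each gene on a log2 axis in the control, RARγi-1 and RARγi-2 libraries, circles for PK-1 and squares for Panc-1, with 1 library per point and lines that join the libraries of a cell line. The dotted line is the floor of 1 TPM, at which both treated Panc-1 libraries lie for RHBDL1. Panc-1 starts above PK-1 in every panel but that of ZG16B.

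Changes were also expressed as the difference of log2 (TPM + 1) between a treated library and its control, a scale that understates the change of low genes. On this scale the 8 genes in PK-1 lay between 1.05 and 2.40 with RARγi-1 and between 1.09 and 2.72 with RARγi-2, with medians of 1.26 and 1.55. In Panc-1 they ranged from -3.38 to -1.06 with RARγi-1 and from -4.86 to -1.13 with RARγi-2, with medians of -1.83 and -2.45. The medians of all entries above the floor were 0.13 and 0.01 for PK-1, and 0.08 and -0.01 for Panc-1. The comparisons with RARγi-1 and RARγi-2 in a line share its control library, so that they are not independent, and an error in 1 control would move both. As a yardstick, the spread of a log2 fold change was estimated from how far both treated libraries of a line differ. It was 0.45 in PK-1 and 0.35 in Panc-1 among entries with at least 5 TPM in a library of the line and a mean under 20 TPM. This yardstick holds real differences between the inhibitors and says nothing of what both share against the control. With 1 library per condition no replicate error, interval or p-value can be given, and TPM keeps no sequencing depth.

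Changes over 2-fold were frequent in each line. In PK-1, 9.05% of 14269 entries above the floor lay over 2-fold up and 4.85% over 2-fold down with RARγi-1, and 11.9% up and 12.3% down with RARγi-2. In Panc-1, 7.30% of 14184 entries were up and 5.96% down with RARγi-1, and 8.34% up and 11.0% down with RARγi-2. Up with both inhibitors in PK-1 were 7.10% and down with both in Panc-1 were 5.59%. The combination that chose the 8 genes was met by 11 of 12799 entries above the floor in both lines, or 0.0859%. Among the same 12799 entries, 336 were up and 273 down with both inhibitors in both lines, and 0 met the mirrored combination. With RARγi-1 alone, 28 entries went up in PK-1 but down in Panc-1 and 4 the other way round, and with RARγi-2 alone these counts were 30 and 4.

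**Figure D2:**
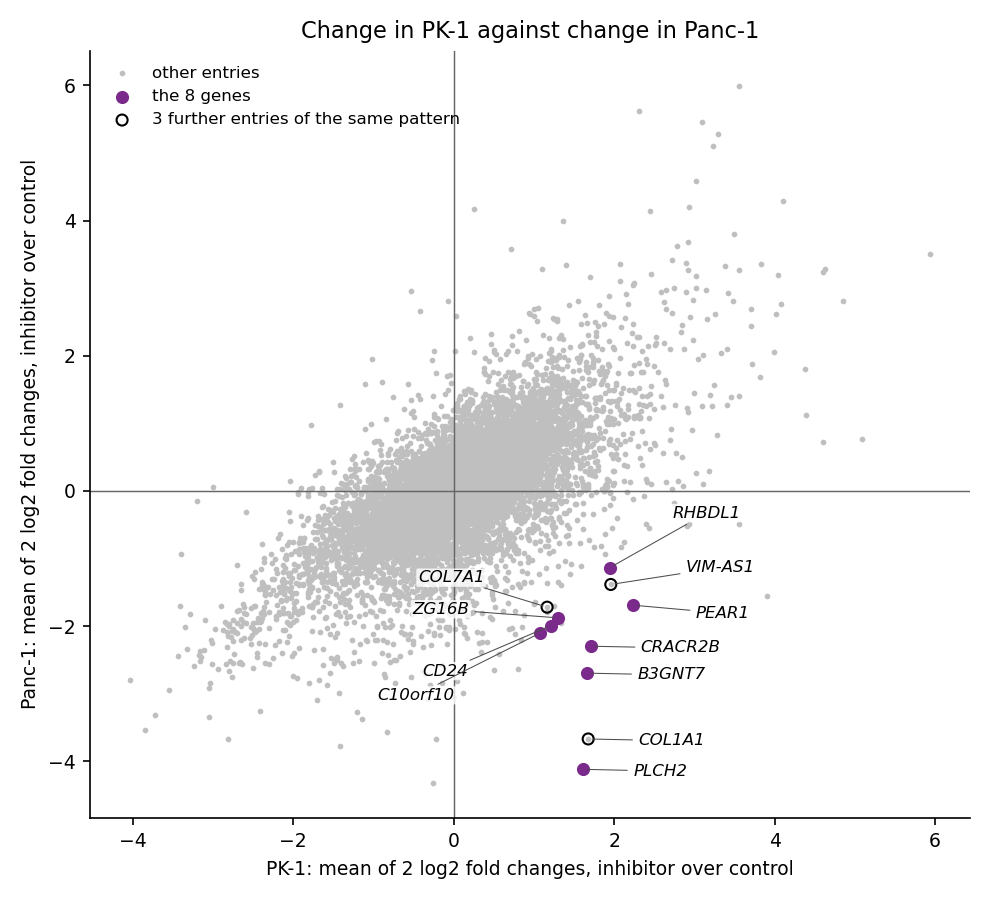
Each point is 1 of 11433 entries above the floor in both lines and reaching 5 TPM in some library, placed by the mean of its RARγi-1 and RARγi-2 log2 fold changes in PK-1 (x axis) and in Panc-1 (y axis). The 8 genes are filled and named, and the 3 further entries of the same pattern are open circles. PLCH2 lies lowest of the 8 genes and RHBDL1 highest, and most other entries run along the rising diagonal.

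The other 3 entries that met the combination were COL1A1, VIM-AS1 and COL7A1. COL1A1, a chain of type I collagen and the fibroblast marker given above, changed on the log2 scale by 1.57 and 1.78 in PK-1 and by -3.24 and -4.10 in Panc-1. COL7A1, the collagen of anchoring fibrils beneath epithelia, was at 7.69, 19.98 and 17.1 TPM and at 24.3, 7.19 and 6.17 TPM. Both collagens shared with 7 of the 8 genes a higher control level in Panc-1. VIM-AS1, an antisense RNA at the vimentin gene, was at 1.38, 6.31 and 10.7 TPM and at 4.74, 1.202 and 1.194 TPM. VIM itself was at 41.7, 92.1 and 140 TPM in PK-1 and at 6291, 4049 and 3962 TPM in Panc-1, and without the use of strand the reads of the pair cannot be told apart.

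The threshold lay within a continuous range of values. Taking for each gene the smallest of its 4 changes in the direction of the pattern, B3GNT7 lay just inside with 1.05 and C10orf10 and PEAR1 with 1.06. Just outside, among entries with at least 10 TPM in a library, lay IFITM10 with 0.99, the basal keratin KRT15 and the clock repressor BHLHE41 with 0.98, ADAP1 with 0.90 and S100A3 with 0.89. KRT15, for example, was at 53.9, 108 and 138 TPM in PK-1 and at 15.1, 4.71 and 2.85 TPM in Panc-1. After the libraries of each line were rescaled by median ratios, which removed 0.14 on the log2 scale from PK-1 with RARγi-1, 5 of the 8 genes remained past the threshold, and B3GNT7, ZG16B and C10orf10 lay under it with unchanged direction. With a pseudocount of 5 TPM only PLCH2 remained past it. No gene changed direction, but a pseudocount, threshold or minimum cannot change it. The rescaling moved values by less than the smallest change of the 8 genes, so that the kept directions add no evidence.

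The nearest entries to the mirrored combination were PRKACB, ARHGAP23, SLC44A2, LIAS and MON1A, with smallest changes of 0.86, 0.75, 0.69, 0.63 and 0.63. PRKACB, a catalytic subunit of protein kinase A, was at 28.9, 15.4 and 10.7 TPM in PK-1 and at 19.5, 62.2 and 58.6 TPM in Panc-1.

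The control levels set most of these genes apart between the lines. On the log2 (TPM + 1) scale, the control of PK-1 relative to that of Panc-1 ranged from -4.32 for B3GNT7 to 1.04 for ZG16B with a median of -2.83, and 7 of the 8 genes were higher in Panc-1. Among all 12799 entries 50.9% were higher in the Panc-1 control, among those up with both inhibitors in PK-1 52.9%, and among those down with both in Panc-1 63.97%. The same control libraries enter the changes, so that a chance deviation in a control moves the control difference and the changes together. With RARγi-1 the median of the 8 genes was 0.31, and 4 were higher in each line. With RARγi-2 the median was 1.73, and 7 were higher in PK-1, with CD24 as the exception. Of the 7 genes whose Panc-1 control was over 2-fold higher, 3 (PLCH2, RHBDL1 and C10orf10) were higher in PK-1 after RARγi-1 and 6 after RARγi-2. Of all 1817 entries with such a control difference, 5.78% were higher in PK-1 after RARγi-1 and 7.43% after RARγi-2. A change of order follows in part from the choice of the genes.

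**Figure D3:**
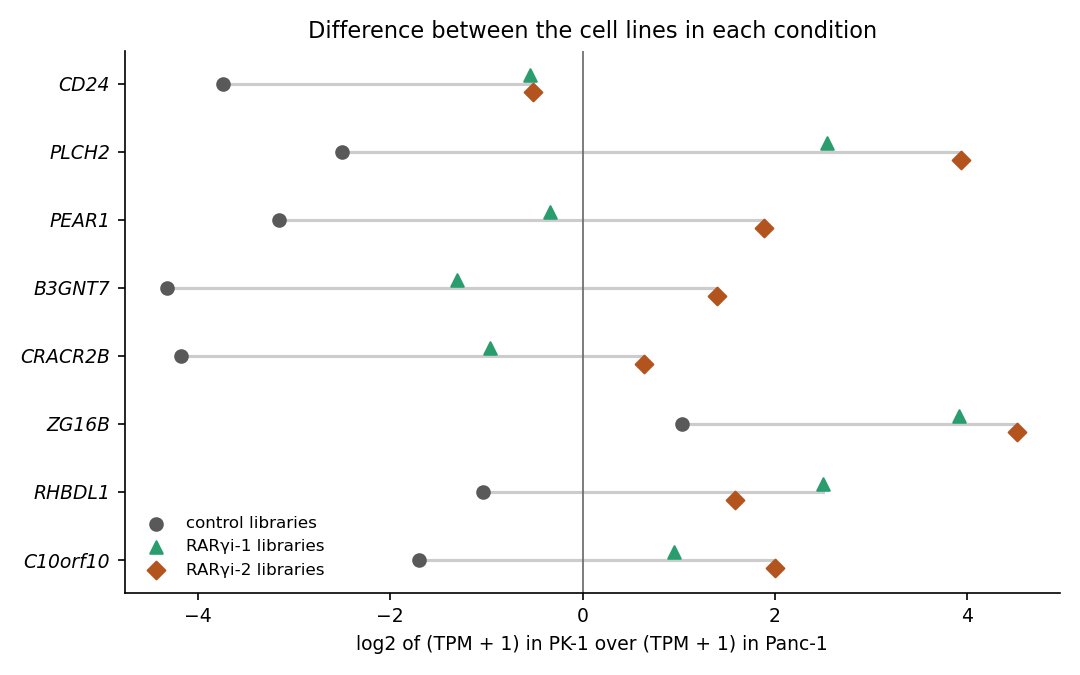
For each gene, the level in PK-1 relative to Panc-1 as log2 of (TPM + 1) over (TPM + 1) in the control libraries (circles), with RARγi-1 (triangles) and with RARγi-2 (diamonds); 0 means equal levels, and the triangles and diamonds are shifted up and down for legibility. All points move to the right of the control, and with RARγi-2 only CD24, at -0.51, remains left of 0.

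The inhibitors differed in the size of the change for some of the genes. In PK-1 the levels with RARγi-2 were 2.08-fold those with RARγi-1 for PEAR1, 2.49-fold for B3GNT7 and 2.14-fold for CRACR2B, whereas for PLCH2 and C10orf10 they were 0.937 and 1.03 times as high. In Panc-1 the level with RARγi-1 was 4.40-fold that with RARγi-2 for PLCH2, 3.00-fold for B3GNT7 and 2.85-fold for PEAR1, but 1.21-fold for CD24 and 1.12-fold for ZG16B. The level was farther from the control with RARγi-2 than with RARγi-1 for 5 of the 8 genes in PK-1, beside 76.5% of the 1013 entries up with both inhibitors, and for 7 of the 8 in Panc-1, beside 83.6% of the 793 entries down with both, RHBDL1 being at the floor with both. The doses of the inhibitors are not stated for the sequencing, so that the values stand side by side and the compounds were not compared.

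Related genes show whether a family or pathway moved as a whole. They are given here by counts over 2-fold on the log2 (TPM + 1) scale, in the same direction with both inhibitors. The 8 genes are included, and by their choice each adds 1 to the up count of its list in PK-1. Each likewise adds 1 to the down count in Panc-1, and it enters the medians. Over all entries above the floor these shares were 7.10% up and 4.60% down in PK-1, and 5.33% up and 5.59% down in Panc-1. The lists hold few genes, so that 1 gene more or less moves their shares widely. Without the 8 genes, 3 of 6 secreted mucosal proteins and 5 of 19 FOXO factors and targets were up in PK-1. So were 1 of 13 genes of store-operated calcium entry and 1 of 11 epithelial surface and junction genes. Down in Panc-1 were 1 of 9 phospholipase C genes, 1 of 7 rhomboid genes and 1 of 8 epithelial surface and junction genes. In the other lists around the 8 genes these counts were 0. Of the phospholipase C family, 8 members were above the floor in PK-1, with 1 up and 1 down, and 10 in Panc-1, with 0 up and 2 down. PLCH2 was the one that was up, and PLCE1 was down in both lines, at 12.5, 5.63 and 4.94 TPM in PK-1 and at 26.6, 7.64 and 5.98 TPM in Panc-1. The closest relative of PLCH2, PLCH1, was at the floor in all 6 libraries. The family medians were 0.11 and 0.03 for PK-1, and -0.33 and -1.08 for Panc-1, beside the medians of all entries given above.

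Of 15 genes of store-operated calcium entry, 14 were above the floor in PK-1, with 2 up and 0 down, and 15 in Panc-1, with 0 up and 1 down. CRACR2B made up 1 of each count. The other was ATP2A3, a calcium pump of the endoplasmic reticulum, at 3.83, 8.91 and 12.1 TPM in PK-1 and at 5.53, 10.4 and 7.90 TPM in Panc-1. The calcium sensor STIM1 was at 31.4, 50.7 and 47.9 TPM in PK-1 and at 59.6, 63.5 and 48.9 TPM in Panc-1, and the channel gene ORAI1 at 49.0, 58.3 and 49.7 TPM and at 93.1, 163 and 114 TPM. The medians of the list were 0.54 and 0.37 for PK-1, and 0.21 and 0.05 for Panc-1.

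Among β1,3-N-acetylglucosaminyltransferases and genes of keratan sulfate synthesis, 12 lay above the floor in PK-1, and 9 did in Panc-1. B3GNT7 was the 1 gene up in PK-1 and the 1 gene down in Panc-1. CHST1, a keratan sulfate sulfotransferase, was the 1 gene up in Panc-1, with levels at the floor in the control, 6.99 TPM after RARγi-1 and 16.5 TPM after RARγi-2, and with 2.19 and 6.03 TPM after a control at the floor in PK-1. The medians were 0.40 and 0.32 for PK-1, and 0.22 and 0.04 for Panc-1.

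In the rhomboid family, with 8 members above the floor in each line, RHBDL1 was the 1 gene up in PK-1. In Panc-1, 1 was up and 2 were down. RHBDL2 was at 31.5, 7.32 and 2.59 TPM there, a decrease like that of RHBDL1, but at 10.7, 11.6 and 7.88 TPM in PK-1. RHBDD1 was at 6.19, 14.6 and 15.9 TPM in Panc-1 and at 4.18, 7.05 and 7.21 TPM in PK-1. The medians were 0.45 and 0.47 for PK-1, and 0.08 and 0.07 for Panc-1. Among receptors with multiple EGF domains, 5 lay above the floor in PK-1, and 6 did in Panc-1; PEAR1 alone was past 2-fold with both inhibitors in either line. Their medians were 0.10 and 0.42 for PK-1, and -0.18 and -0.71 for Panc-1.

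Secreted mucosal proteins, the list around ZG16B, comprised 7 genes above the PK-1 floor, with 4 up and 0 down, and 4 above that of Panc-1, with 1 up and 1 down. AGR2, a protein disulfide isomerase of mucus-secreting cells, was at 445, 3927 and 11302 TPM in PK-1 and at 208, 36.4 and 133 TPM in Panc-1. It shared the pattern with RARγi-1 but was not past 2-fold in Panc-1 with RARγi-2. The iron-siderophore binder LCN2 was higher in both lines, at 158, 803 and 4016 TPM in PK-1 and at the floor, 18.1 and 39.7 TPM in Panc-1. The protease inhibitor SLPI was at 65.1, 193 and 228 TPM in PK-1 and at the floor in Panc-1. The medians were 1.07 and 1.53 for PK-1, and -0.91 and -0.18 for Panc-1.

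Of 21 FOXO factors and targets, the list around C10orf10, 20 were above the floor in PK-1, with 6 up and 0 down, and 19 in Panc-1, with 2 up and 1 down. C10orf10 was the one that was down. GADD45A, a growth arrest gene, was at 99.6, 212 and 247 TPM in PK-1 and at 78.2, 342 and 418 TPM in Panc-1, and thus higher in both lines. The cyclin CCNG2 was at 3.59, 18.6 and 15.7 TPM in PK-1 and at 1.70, 4.90 and 3.91 TPM in Panc-1. The insulin receptor substrate IRS2 was at 4.43, 10.8 and 18.4 TPM and at 1.81, 3.02 and 5.11 TPM. Of the factors, FOXO3 was at 15.5, 30.2 and 33.4 TPM in PK-1 and at 10.1, 19.8 and 21.7 TPM in Panc-1, and FOXO4 was at the floor, 3.64 and 5.21 TPM in PK-1. FOXO1 was at 8.26, 11.0 and 20.5 TPM in PK-1 and at 1.58, 1.54 and 1.60 TPM in Panc-1. The medians of the list were 0.62 and 0.74 for PK-1, and 0.35 and 0.48 for Panc-1.

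Among 14 epithelial surface and junction genes, CD24 included, 12 were above the floor in PK-1, with 2 up and 0 down, and 9 in Panc-1, with 2 up and 2 down. The splicing factor ESRP1 was the other gene up in PK-1, at 107, 218 and 304 TPM, and was at the floor in Panc-1. In Panc-1 the tight junction genes CLDN3, at 7.71, 24.4 and 37.6 TPM, and CLDN7, at 29.3, 96.8 and 96.7 TPM, were higher. CD44, the hyaluronan receptor often measured together with CD24, was at 462, 196 and 169 TPM in Panc-1 and at 455, 465 and 194 TPM in PK-1. It was thus lower in Panc-1 together with CD24, but was not higher in PK-1. The medians were 0.45 and 0.28 for PK-1, and -0.57 and -0.65 for Panc-1.

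Of 17 retinoic acid receptors and targets, 13 were above the floor in PK-1, with 0 up and 3 down, and 11 in Panc-1, with 0 up and 4 down, so that none of them was up with both inhibitors. TGM2, a transglutaminase induced by retinoic acid, was at 1167, 188 and 70.9 TPM in PK-1 and at 66.2, 18.4 and 8.17 TPM in Panc-1. RARG, the gene of the inhibited receptor, was at 51.1, 37.5 and 23.5 TPM in PK-1 and at 30.1, 8.83 and 3.27 TPM in Panc-1. KRT13, a keratin of stratified epithelia, was at 3457, 655 and 358 TPM in PK-1 and at the floor in Panc-1, and CRABP2, which carries retinoic acid to its receptors, was at 116, 105 and 42.0 TPM and at 231, 86.4 and 37.2 TPM. The medians were -0.14 and -0.81 for PK-1, and -0.42 and -0.49 for Panc-1.

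**Figure D4:**
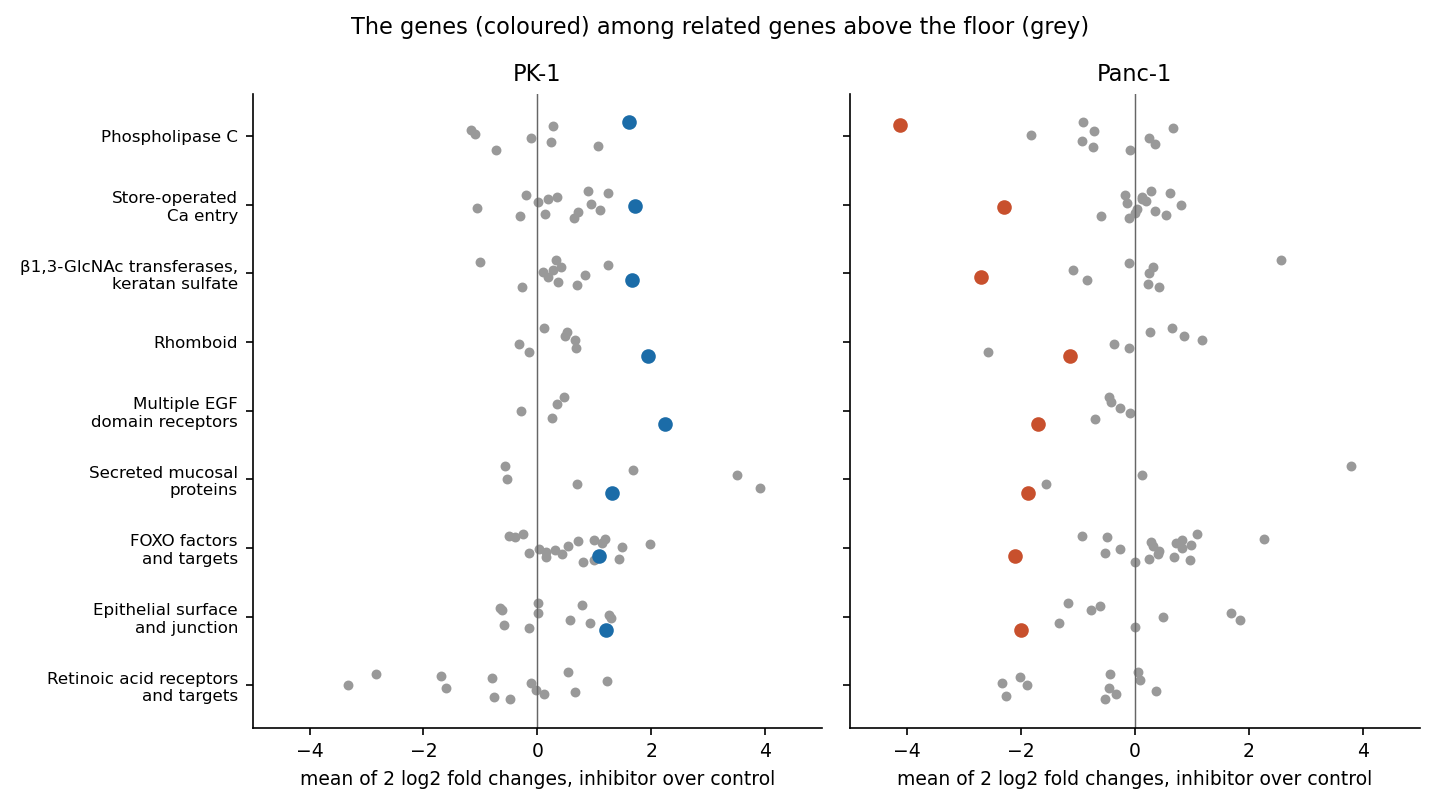
PK-1 is on the left and Panc-1 on the right, and each point is a gene above the floor in that line, placed by the mean of its RARγi-1 and RARγi-2 log2 fold changes in that line, in 9 lists of related genes; the 8 genes are coloured, the other genes are grey, and the height within a list only separates the points. In Panc-1 PLCH2, CRACR2B, B3GNT7, PEAR1, ZG16B, C10orf10 and CD24 lie farthest to the left in their lists, and only in the rhomboid family does another gene, RHBDL2, lie farther to the left. The 8 genes were chosen on these same changes, so that their place in the lists follows in part from the choice.

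Genes beside the 8 on the chromosome were looked at for the same pattern. Of 17 protein-coding neighbours, the nearest on each side and those that overlap, 14 were above the floor in a library and 0 were past 2-fold in the 4 comparisons as the 8 genes were. With 0.0859% of all entries in the pattern, 0 of so few genes does not set the neighbours apart. Changes of any size in the directions of the 8 genes were found for 3 of the 13 neighbours above the floor in both lines. These were PNPLA2, CD151 and RASSF4, beside 7.51% of all 12799 such entries. PNPLA2, a triglyceride lipase that ends 583 bases before CRACR2B, was at 23.4, 41.6 and 79.1 TPM in PK-1 and at 168, 96.1 and 141 TPM in Panc-1. CD151, a tetraspanin 960 bases beyond it, was at 286, 298 and 316 TPM and at 904, 580 and 644 TPM. PRSS22, a serine protease gene next to ZG16B, was at 99.1, 151 and 176 TPM in PK-1 and at 13.5, 16.8 and 3.80 TPM in Panc-1, and its change differed in sign between the lines with RARγi-2 only. NCL, next to B3GNT7, was lower in both lines, at 765, 349 and 265 TPM in PK-1 and at 1119, 657 and 690 TPM in Panc-1.

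The entries whose levels followed CD24 most closely over the 6 libraries were THSD1, GPR39 and IL11RA, with Pearson's r of 0.993, 0.991 and 0.990 on the log2 (TPM + 1) scale among 10628 entries. With 6 libraries in 2 lines these values hold the difference between the lines together with the changes on treatment, and no p is given. Each of the 3 moved in the directions of the pattern, with smallest changes of 0.40, 0.46 and 0.72. IL11RA, a cytokine receptor, was at 1.29, 3.01 and 2.79 TPM in PK-1 and at 21.6, 6.46 and 4.85 TPM in Panc-1. None of the 3 was past 2-fold in PK-1 on the log2 (TPM + 1) scale, although IL11RA was in TPM itself. Of the other genes of the pattern, CRACR2B and B3GNT7 had r with CD24 of 0.94 and 0.90, PEAR1 0.75, C10orf10 0.48, PLCH2 0.34, RHBDL1 0.12 and ZG16B -0.34.

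RefSeq promoters matched 7 of the 8 genes, with 12 transcription starts in all, beside 35116 promoters of the same length, and CRACR2B had no entry. The GC content of the promoter described for each gene, between 57.3% for C10orf10 and 77.3% for B3GNT7, lay around or above the median of 58.7% over all promoters. Motifs were searched on both strands. A gene was counted if the promoter of any of its starts held the motif, whereas the share of all promoters counts each start. The number among the 12 promoters is therefore the one to set beside that share, although some windows of 1 gene overlap. The retinoic acid receptor hexamer AGGTCA was found in 1 of the 7 genes, PLCH2, at 157 to 152 bases before the start shown above. It was found again in the overlapping window of a neighbouring start, so in 2 of the 12 promoters, and in 13.8% of all promoters. Direct repeats of this hexamer with 1, 2 or 5 bases between were found in 0 of the 7 genes, and in 0.0228%, 0.00285% and 0.0057% of all promoters.

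The FOXO site TGTTTAC was found in C10orf10 alone, at 180 to 174 bases before the start on the strand opposite to the gene. That is 1 of the 12 promoters, beside 3.42% of all promoters. The TATA box TATAAA was found in C10orf10, 31 to 26 bases before the start, and in ZG16B, 29 to 24 bases before it. That is 2 of the 12 promoters, beside 11.5% of all promoters. The E-box CACCTG was found in CD24, PLCH2, B3GNT7 and RHBDL1, in 4 of the 12 promoters, and in 20.6% of all promoters. In B3GNT7 it lay at 77 to 72 bases before the start. ZEB1, a factor that binds this E-box, was at the floor in PK-1 and at 8.65, 14.5 and 10.9 TPM in Panc-1.

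The antioxidant response element TGANNNNGC was found in 4 genes (CD24, PLCH2, ZG16B and RHBDL1), in 7 of the 12 promoters, and in 41.8% of all promoters. CCACG, a part of the ER stress element, was found in PLCH2, B3GNT7, ZG16B and RHBDL1, in 5 of the 12 promoters, and in 38.1% of all. The whole ER stress element (0.0769% of all promoters), the ATF4 and CHOP site TGATGNAAN (3.61%), the E2F sites TTTGGCGC and TTTCCCGC (0.652% and 1.63%) and the cyclic AMP response element TGACGTCA (1.85%) were found in 0 of the 7 genes. No motif searched was found in all 7 genes, and the letters alone do not show that a factor binds.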

How the data were processed

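RNA-seq of 6 libraries (TruSeq Stranded mRNA, RNA from Trizol) was analysed. The authors deposited log2 values of TPM in which everything under 1 TPM had been raised to 1 TPM, as the values themselves show. The submitters' processing notes name hg38; the aligner, the counter, the annotation and the use of strand are not given in the sources used here. The values were returned to linear TPM, and log2 fold changes were computed with a pseudocount of 1 TPM, with over 2-fold as the call. No test was made, because there is 1 library per condition, and depth is unknown. 

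The 8 genes, the related lists, the motifs and the alternatives were chosen with earlier results of these data known. Genes named are the 8, the other entries of the pattern, the 5 nearest its threshold and the 5 nearest the mirrored pattern (at least 10 TPM in a library), up to 4 per list past 2-fold with both inhibitors in a line, chromosomal neighbours, the 3 entries most like CD24, and checks of the labels. STIM1, ORAI1, PLCH1, FOXO1, FOXO3 and ZEB1 were added after their values were seen. Of the Entrez IDs, 95.1% were in RefSeq on GRCh38.p14, from which positions, neighbours and promoters were taken. The spread between the inhibitor libraries was estimated as the median absolute deviation of their log2 difference, times 1.4826. It was taken for a single fold change, over entries with at least 5 TPM in a library of the line. Python 3.11.15, pandas 2.3.3, NumPy 2.4.6 and Matplotlib 3.10.9 were used, and the counting was tested on simulated data. Alternatives were no pseudocount or 5 TPM, median-ratio rescaling, thresholds of 3-fold and 1.5-fold, a minimum of 5 TPM in each line, summed entries of a symbol and, added after the data were seen, 1 inhibitor alone.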

Additional observations from a re-analysis of the deposited data

Results flagged for a closer look

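For 11 entries both treated PK-1 libraries lay over 2-fold above their control and both treated Panc-1 libraries over 2-fold below theirs; changes of these signs but of any size were found for 961 entries, which are not listed. This is how the 8 genes were chosen, and the difference between the lines was not tested. The mean log2 fold change in PK-1 minus that in Panc-1 was 5.73 for PLCH2, 4.36 for B3GNT7, 4.01 for CRACR2B, 3.93 for PEAR1, 3.20 for CD24, 3.18 for ZG16B and for C10orf10, and 3.08 for RHBDL1, whose treated Panc-1 libraries lay at the floor. It was 5.35 for COL1A1, 3.34 for VIM-AS1 and 2.88 for COL7A1.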

How the results depend on the processing

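No paired analysis was possible because there is 1 library per condition. In an alternative added after the data were seen, the pattern was counted without the libraries of 1 inhibitor: without RARγi-2, 28 entries met it and 4 the mirrored one, and without RARγi-1, 30 and 4, with all 8 genes among them by their choice. A control could not be left out. Of the 8 genes, 1 (PLCH2) lay past 2-fold in all comparisons with a pseudocount of 5 TPM, 5 after median-ratio rescaling and 0 at a threshold of 3-fold. RHBDL1 was lost with a minimum of 5 TPM in each line. The 11 entries of the pattern became 19 with no pseudocount, 2 with a pseudocount of 5 TPM, 0 at 3-fold and 58 at 1.5-fold, and the 0 entries of the mirrored pattern became 1 with no pseudocount and 12 at 1.5-fold. Of 160 values of single genes under the alternatives, 29 moved by more than the spread, 10 of them with no pseudocount and 19 with 5 TPM. That 0 changed sign was fixed in advance for the pseudocounts and for summing, and the shifts of the rescaling were too small to change one. A larger pseudocount reduces the change of low genes by construction. Each symbol of the 8 has 1 entry, so summing changed nothing. The floor limits RHBDL1 in Panc-1, and without replicates the error of no value is known.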
